A study of Mus musculus with 2 samples.

Results

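The genes followed here are 10 genes of amino acid synthesis and transport, taken as a list of names and not for how they behaved: Phgdh, Psat1, Psph, Shmt2, Mthfd2, Asns, Ass1, Slc7a11, Slc3a2 and Slc7a5. All 10 are among the 54736 gene symbols of the spliced count matrix. The cells were 63.3 cells, a mouse acute myeloid leukemia (AML) line. Every culture was grown in RPMI medium with 10% dialyzed fetal bovine serum, 4 mM glutamine, antibiotics, 0.5 µM beta-estradiol and 1% conditioned medium carrying stem cell factor (SCF). In the first series the cells received 2 µM brequinar, an inhibitor of dihydroorotate dehydrogenase in pyrimidine synthesis, for 6, 12, 24 or 48 h. In the second series the cells were washed and moved to medium without estradiol for the same times, and each series had its own 0 h culture. Each of the 10 conditions is a single culture of a single line, tagged with a MULTI-seq barcode (a lipid-anchored oligonucleotide that marks the cells of a culture), pooled and profiled with 10x Genomics chemistry in 2 runs of 1 pool. No later culture was left without a treatment, so treatment and time in culture cannot be told apart, and the labels tie a solvent to neither 0 h culture.

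Phgdh, Psat1 and Psph act in sequence to make serine from an intermediate of glycolysis, and Shmt2 and Mthfd2 carry the one-carbon unit of serine through mitochondrial folate into purine and thymidylate synthesis. Asns makes asparagine from aspartate, and Ass1 joins aspartate to citrulline on the way to arginine. Slc7a11 is the light chain of the cystine/glutamate exchanger, Slc7a5 is the light chain of a carrier of large neutral amino acids, and Slc3a2 is the heavy chain that both pair with. Many of these genes are known targets of ATF4, a transcription factor whose translation goes up when amino acids run short.

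Promoter sequence in RefSeq (GRCm38.p6, 250 bases before to 50 bases after each start) was at hand for 9 of the 10 genes, in 10 windows, and was searched on both strands for TGATGNAA, the composite element of ATF4 with a C/EBP partner. Asns and Slc7a11 held it, against 3.97% of all 32851 windows. Both stretches are shown because these 2 genes share the element and differed in direction at 48 h. The capitals mark the matches, and each stretch is written on the strand of its gene: Asns from chr6:7693210-7693257 (minus strand), with 1 match, and Slc7a11 from chr3:50443628-50443704 (minus strand), with 2 matches, the second in reverse complement.

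Asns: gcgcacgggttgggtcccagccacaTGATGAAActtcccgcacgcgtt

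Slc7a11: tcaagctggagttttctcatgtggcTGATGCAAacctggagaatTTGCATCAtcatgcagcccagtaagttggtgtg

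Of the other motifs searched on both strands, CACGTG (the E-box) was in the Ass1 window and in 7.15% of all windows. TGACNNNGC (the antioxidant response element) was in the windows of Asns, Phgdh and Psph and in 12.4% of all windows. The windows of Psat1, Shmt2, Mthfd2 and Slc3a2 held none of the 3 letter patterns, which says only that these letters are not in those windows. A match describes the sequence and is not a measured binding site.

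The matrix gave 12540 cells assigned to 1 culture, from 528 cells (brequinar, 48 h) to 1536 (brequinar, 12 h), and 5236694 to 19931921 unique molecular identifiers (UMIs) per culture. Levels are UMI counts summed over the cells of a culture and scaled to counts per 1000000 (CPM), so a count of 3 stands at 0.151 to 0.573 CPM. The median cell carried 14849 and 15229 UMIs in the 0 h cultures and 6509 after 48 h of withdrawal, the lowest. All 12 myeloid progenitor markers (such as Mpo, Kit and Cd34) were at 20 CPM or more in both 0 h cultures. The summed level of 12 neutrophil maturation genes went from 492 CPM at 0 h of brequinar to 4436 CPM at 48 h, and from 554 to 62111 CPM in withdrawal. Monocyte markers summed to 28.1 to 489 CPM, and erythroid, lymphoid and stromal markers to at most 8.86, 83.8 and 29.6 CPM. Intervals below are exact 95% intervals (Clopper-Pearson, on the split of counts between 2 cultures) and cover counting error only. With 1 culture per condition no test was made, and in summed counts fewer cells with a transcript and less transcript per cell cannot be told apart.

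A gene counts as measured in a comparison if at least one of its cultures held 20 CPM, and as higher or lower at a ratio of at least 1.5-fold. The 2 cultures at 0 h gave the size of difference between cultures that had no treatment. None of the 9 measured genes differed by 1.5-fold there, and 3 of 5490 genes did, all lower in the brequinar series (0.0546%, with none higher): S100a9, Ngp and BC100530, named after their values were seen. Slc7a5 was not measured: it had 48 UMIs in all cultures together, at most 0.764 CPM, and its counts are given no ratio. Whether the gene models used for counting cover its 3' end is not given in the sources used here, so nothing is read from its low counts. It was listed at 0 in withdrawal at 24 and 48 h, where a count of 3 would be 0.206 and 0.437 CPM.

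In brequinar some of the genes were higher at 6 h and most were lower at 24 h. At 6 h, 3 of the 9 were higher than at 0 h and none lower, with a median log2 ratio of 0.31, where 8.82% of all genes measured were higher and 4.97% lower. At 12 h, 1 of 9 was higher and none lower, near the shares of all genes (13.5% and 4.67%). At 24 h, 8 of 9 were lower and none higher, with a median of -1.10, while more genes overall were higher (29.2%) than lower (13.8%). At 48 h, 5 were lower and 1 higher, against 17.3% and 25.7%. Between 12 and 24 h alone, 8 of the 9 were lower by the same rule and Slc7a11 was higher, against 11.9% of genes lower and 17.2% higher over that step. The step from 6 to 12 h had 2 lower and none higher (3.36% and 6.80% of all genes).

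Against its own 0 h, withdrawal had more of the 9 genes lower at each later time. At 6 h, 2 of 9 were higher and 1 lower than at 0 h, against 12.3% higher and 8.11% lower among all genes. At 12 h, 4 were lower and none higher, against 11.2% and 13.4% of all genes. At 24 h, 5 were lower and none higher, against 11.9% and 9.46%. At 48 h, 8 were lower and 1 higher, with a median of -1.42, where 40.7% of all genes measured were lower and 21.5% higher. The median of all genes measured was itself -0.33 at 48 h against 0 h, and with median-of-ratios size factors, which take such a shift out, 5 of the 9 were lower in that comparison. From step to step, 5 genes were lower and none higher between 6 and 12 h (4.31% and 3.96% of all genes), 1 lower and 1 higher between 12 and 24 h (11.7% and 5.56%), and 7 lower and 1 higher between 24 and 48 h (28.5% and 16.7%). At 24 h of brequinar the median of all genes was 0.16.

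**Figure D1:**
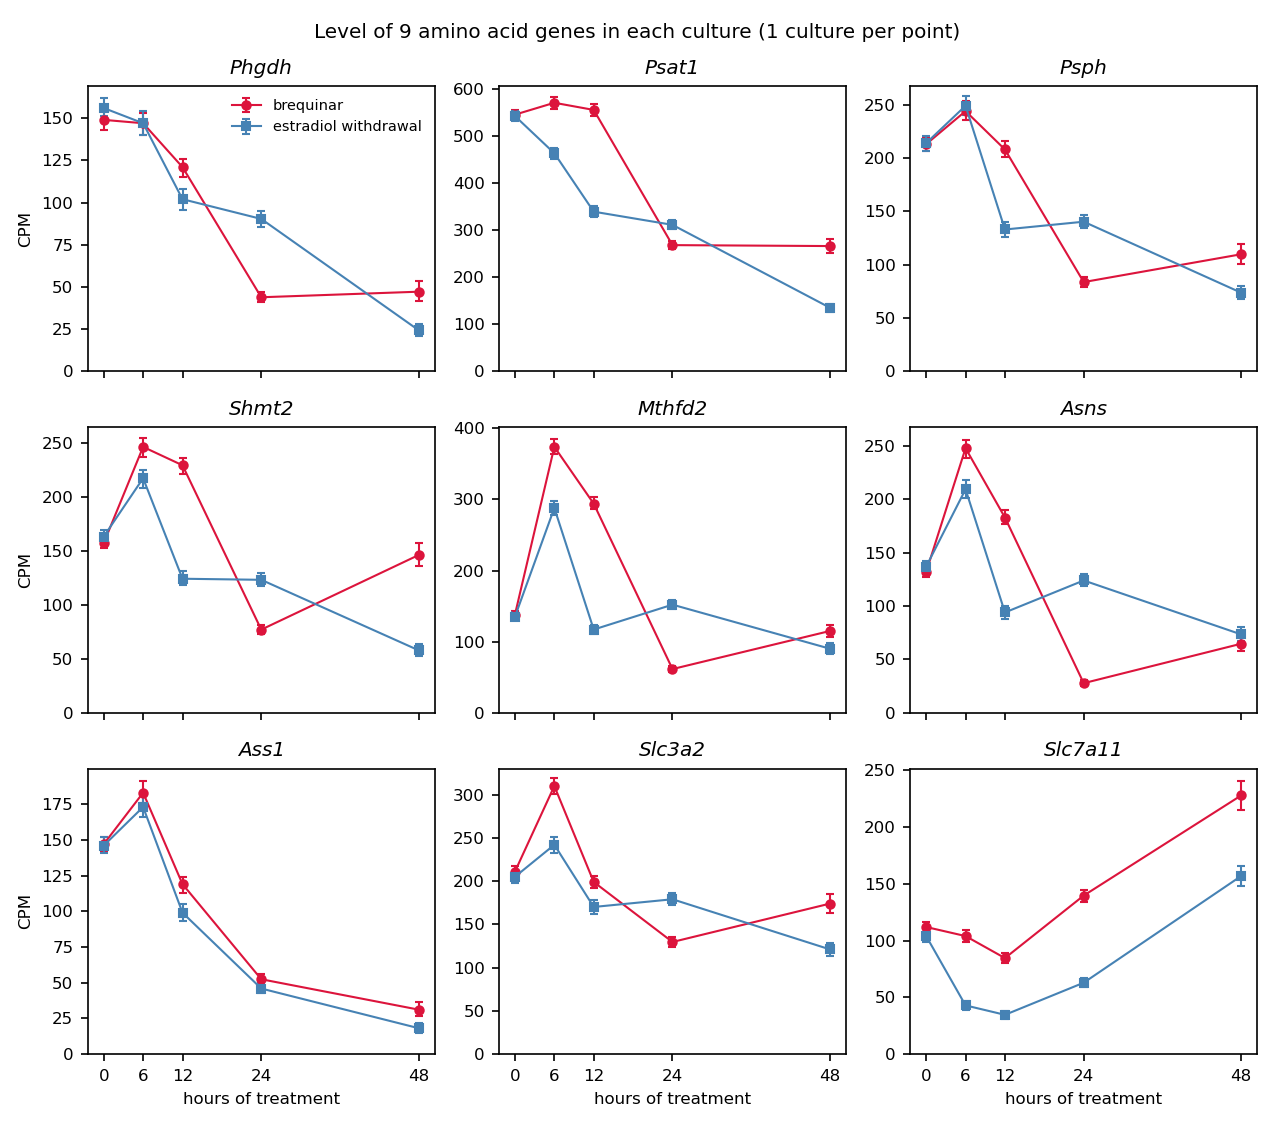
Level in CPM (y axis) of the 9 measured genes against hours of treatment (x axis), 1 culture per point, brequinar in red circles and estradiol withdrawal in blue squares; bars are exact 95% counting intervals. Mthfd2, Asns and Shmt2 peak at 6 h in both series, 8 genes are below 0 h at 24 h of brequinar, and Slc7a11 is highest at 48 h in both.

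Mthfd2, the mitochondrial methylene-tetrahydrofolate dehydrogenase, had the highest ratio to 0 h of the 9 at 6 h in both series. It stood at 138, 374, 294, 61.4 and 115 CPM at 0, 6, 12, 24 and 48 h of brequinar, and at 135, 288, 117, 152 and 90.0 CPM in withdrawal. Its level at 6 h was 2.72-fold (interval 2.59 to 2.85) that of 0 h in brequinar and 2.13-fold (2.02 to 2.24) in withdrawal. At 12 h brequinar still held it 2.14-fold above 0 h, while the withdrawal culture was back under its own 0 h level at 0.862-fold. By 24 h the order was reversed: Mthfd2 was 2.24-fold lower than at 0 h in brequinar and 1.12-fold higher in withdrawal.

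Shmt2, which moves the one-carbon unit of serine onto folate in mitochondria, was also highest at 6 h in both series. Its levels were 157, 246, 229, 76.9 and 146 CPM in brequinar and 163, 217, 124, 123 and 57.7 CPM in withdrawal. It was 1.56-fold higher at 6 h of brequinar and 2.05-fold lower at 24 h, and at 48 h it had come back to 0.926-fold of 0 h. In withdrawal it ended 2.82-fold lower (2.54 to 3.14), so at 48 h the brequinar culture held 2.53-fold more of it than the withdrawal culture.

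The 3 enzymes of serine synthesis had little or no early peak. Phgdh, the first and committed step, was at 149, 147, 121, 43.9 and 47.2 CPM in brequinar and at 156, 147, 102, 90.3 and 24.3 CPM in withdrawal. Psat1, the aminotransferase of the second step, was at 545, 570.2, 555, 268 and 266 CPM in brequinar and at 542, 463, 339, 311 and 135 CPM in withdrawal. Both stayed within 1.5-fold of 0 h through 12 h of brequinar and were lower from 24 h on, with almost no difference between 24 and 48 h. At 48 h Phgdh was 3.15-fold lower in brequinar and 6.42-fold lower (5.49 to 7.55) in withdrawal, and Psat1 2.05-fold and 4.01-fold lower.

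Psph, the phosphatase that releases serine, was at 213, 244, 208, 83.7 and 109.8 CPM in brequinar and at 214, 249, 133, 140.3 and 73.7 CPM in withdrawal. Its levels at 6 h were 1.15-fold and 1.16-fold those of 0 h, under the 1.5-fold mark in both. It ended 1.94-fold lower in brequinar and 2.90-fold lower in withdrawal, so each enzyme of the serine branch was lower at 48 h in both series.

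Asns, asparagine synthetase, had the deepest 24 h trough. It stood at 132, 248, 183, 27.7 and 64.7 CPM in brequinar and at 137, 209.5, 94.0, 124 and 73.4 CPM in withdrawal. In brequinar it was 6.63-fold lower at 24 h than at 12 h, and 2.34-fold higher (2.03 to 2.70) at 48 h than at 24 h. Withdrawal had no such trough: at 24 h its Asns level was 0.911-fold of 0 h and 4.50-fold above that of the brequinar culture.

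The mRNA of Atf4 itself followed the same course as Asns. It was at 229, 383, 286, 81.3 and 166 CPM in brequinar and at 236, 392, 213, 264 and 179 CPM in withdrawal. In brequinar it was 3.51-fold lower at 24 h than at 12 h and 2.05-fold higher at 48 h than at 24 h. Over the step from 24 to 48 h of brequinar 4 of the 9 genes were higher (Asns, Shmt2, Mthfd2 and Slc7a11) and Ass1 lower, against 6.64% and 8.83% of all genes.

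Ass1, argininosuccinate synthase, was the gene with the widest range, 10.1-fold between its highest and lowest culture. Its levels were 147, 183, 119, 52.4 and 31.1 CPM in brequinar and 146, 173, 99.0, 45.9 and 18.1 CPM in withdrawal. After 6 h each later culture was below the one before it in both series, with no return at 48 h. The withdrawal culture at 48 h was 8.10-fold lower than 0 h (6.77 to 9.78).

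Slc3a2, the heavy chain shared by several amino acid exchangers, moved least, 2.57-fold between its extremes. It was at 211, 309.9, 199, 129.6 and 174 CPM in brequinar and at 205, 242, 170.1, 179 and 121 CPM in withdrawal. Against 0 h it passed the 1.5-fold mark at 24 h of brequinar (1.63-fold lower) and at 48 h of withdrawal (1.70-fold lower), and stood just under it at 6 h of brequinar (1.47-fold higher).

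Slc7a11, the cystine transporter chain that Slc3a2 carries, went against the others. It was at 112, 104, 84.6, 139.7 and 228 CPM in brequinar and at 104, 42.9, 34.6, 62.9 and 157 CPM in withdrawal. At 6 h of withdrawal, when Mthfd2 and Asns were at their peak, it was at 0.413-fold of 0 h. At 12 h of withdrawal all 9 genes were below 0 h, and Slc7a11 was the furthest below at 0.333-fold. In brequinar Slc7a11 stayed within 1.5-fold at both times. At 48 h it was 2.04-fold higher (1.90 to 2.19) in brequinar and 1.51-fold higher (1.40 to 1.63) in withdrawal. The second value lies at the edge of the 1.5-fold mark and does not hold under some other settings. It was 0.783-fold as mean UMIs per cell and 0.571-fold with cells weighted to the cell cycle shares of 0 h, which rest on 8 G1-like cells. Median-of-ratios size factors move it the other way: they shift log2 levels by 0.33 at 48 h of withdrawal and by -0.02 at its 0 h.

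**Figure D2:**
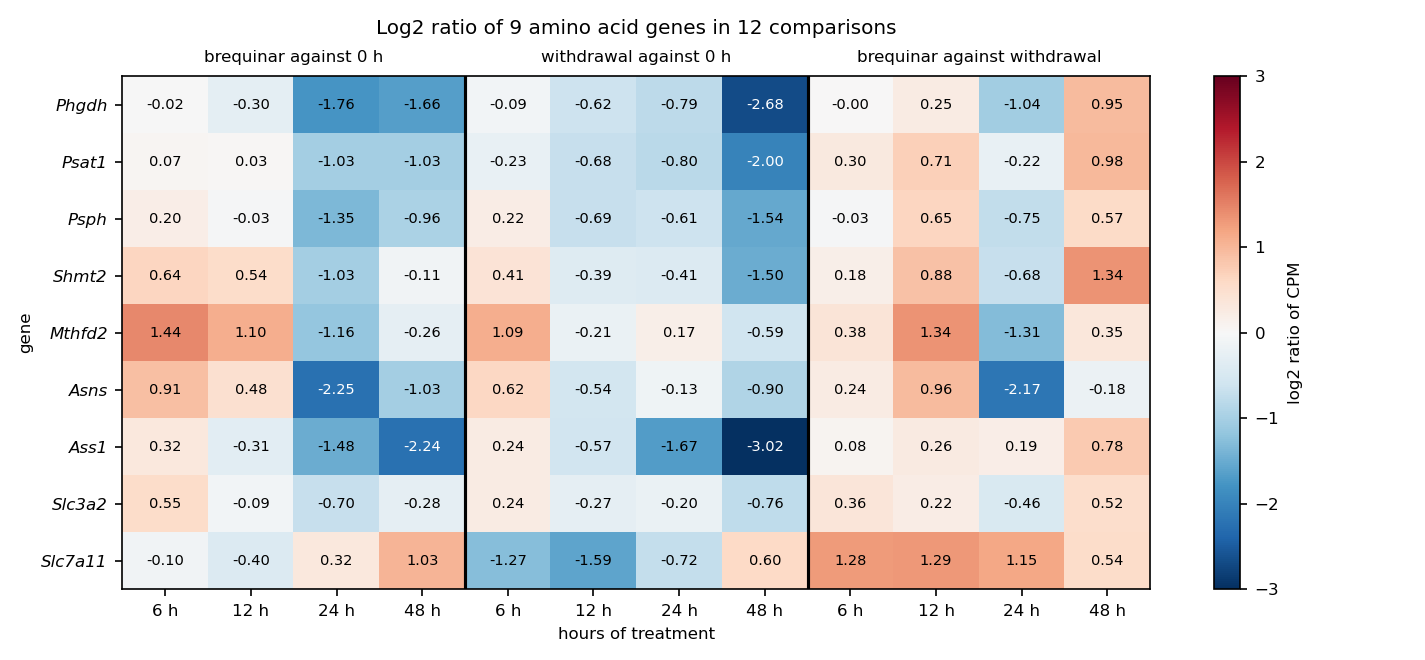
Log2 ratio of CPM (colour scale and printed values) of the 9 measured genes (rows) in 12 comparisons (columns): brequinar against 0 h, withdrawal against 0 h, and brequinar against withdrawal, each at 6, 12, 24 and 48 h. Blue is lower; the 24 h brequinar column is blue for 8 genes, and Slc7a11 is red against withdrawal at all 4 times.

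Set against each other at matched times, the 2 treatments differed most at 12 and 24 h, in opposite directions; these comparisons use the same cultures as those against 0 h. At 6 h only Slc7a11 of the 9 differed, 2.42-fold higher in brequinar, where 1.90% of all genes were higher and 1.45% lower. At 12 h, 6 of 9 were higher in brequinar and none lower, against 13.2% and 7.33% of all genes: Slc7a11 2.45-fold, Mthfd2 2.53-fold, Asns 1.95-fold, Shmt2 1.84-fold, Psat1 1.64-fold and Psph 1.57-fold. At 24 h, 5 of 9 were lower in brequinar and 1 higher, against 8.05% and 29.6% of all genes. Asns was 4.50-fold lower, Mthfd2 2.48-fold, Phgdh 2.05-fold, Psph 1.68-fold and Shmt2 1.60-fold lower, and Slc7a11 2.22-fold higher. At 48 h, 4 of 9 were higher in brequinar (Shmt2, Psat1, Phgdh and Ass1) and none lower, a share near that of all genes (37.6% higher and 8.57% lower).

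The early and late changes were also seen in the share of cells with a UMI. For a gene spread evenly over cells this share follows from its mean level at a given depth, so it is not a separate result. To compare cultures of unequal depth each cell was thinned to 2500 UMIs, which left 10949 cells. Mthfd2 had a UMI in 26.4% of cells at 0 h and 60.7% (57.8 to 63.6) at 6 h of brequinar, and in 26.6% and 48.8% in withdrawal. Asns went from 26.6% to 43.1% of cells at 6 h of brequinar and down to 5.30% (4.20 to 6.59) at 24 h. Ass1 went from 28.5% to 7.38% at 48 h of brequinar and from 31.8% to 3.72% in withdrawal. Unthinned, Asns was seen in 68.4% of cells at 0 h, 81.4% at 6 h and 22.2% at 24 h of brequinar. Free RNA, read from barcodes with few UMIs, carried these genes too (Asns at 121 CPM); with 5% of each culture taken away in that profile, each of the 24 counts of higher or lower genes in the 12 comparisons stayed within 1.5 times its value.

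**Figure D3:**
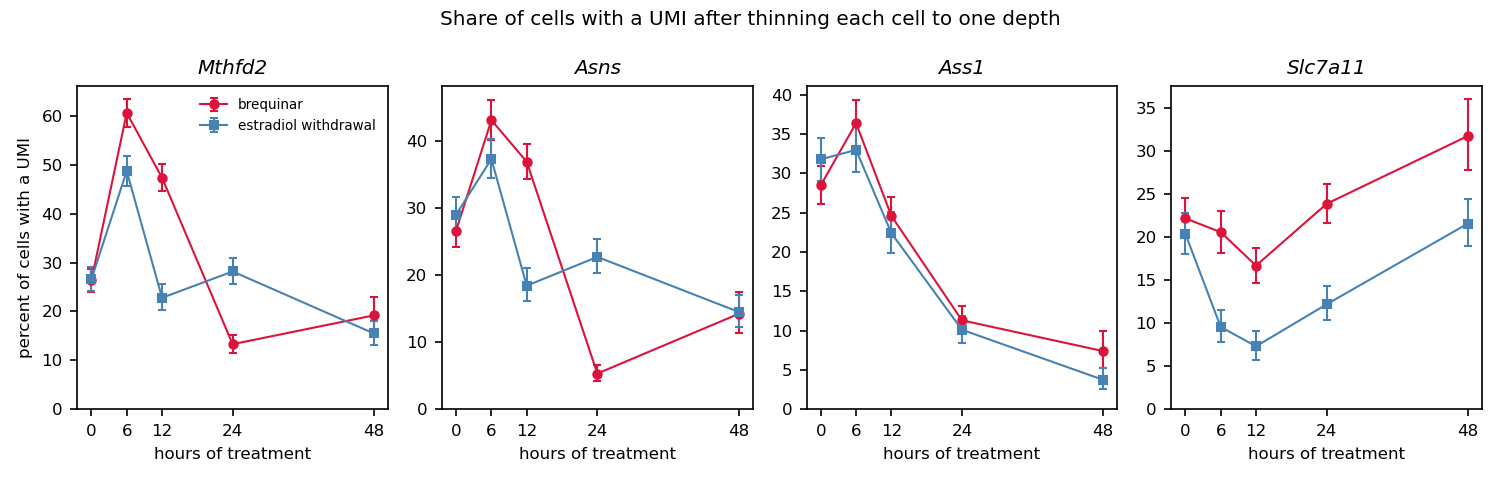
Percent of cells with at least 1 UMI (y axis) of Mthfd2, Asns, Ass1 and Slc7a11 against hours of treatment (x axis), after thinning each cell to 2500 UMIs; bars are exact 95% binomial intervals for counting error. Mthfd2 reaches 60.7% of cells at 6 h of brequinar, Asns 5.30% at 24 h, and Slc7a11 returns only to 21.6% at 48 h of withdrawal.

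After 48 h in either series, and to a smaller degree at 0 h, the UMIs of Slc7a11 were spread less evenly than those of the other 8 measured genes. Its share of cells at 48 h of withdrawal was 21.6%, near the 20.4% of 0 h, although its CPM was higher. The variance of its thinned counts was 1.24 times the mean at 0 h of withdrawal, where the other 8 genes had 1.01 to 1.14. It was 3.59 times the mean at 48 h of withdrawal, where the other 8 genes had 0.96 (Ass1) to 1.17 (Mthfd2). In brequinar the ratio for Slc7a11 went from 1.35 at 0 h to 2.05 at 48 h. The other 8 genes had 1.00 (Asns) to 1.11 (Mthfd2) at 0 h of brequinar and 1.02 (Ass1) to 1.39 (Mthfd2) at 48 h.

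Cells were also put into classes by 43 S phase and 54 G2/M genes, none of them among the 10. The shares differed between cultures: at 0 h of brequinar 42.1% of cells were in the S class and 57.1% in the G2/M class, and at 24 h 14.2% and 84.1%. After 48 h of withdrawal 52.6% were in neither (called G1-like), against 0.682% at 0 h. The 24 h trough was present inside both classes, with 6 of 9 genes at least 1.5-fold lower than at 0 h among S cells and 8 of 9 among G2/M cells. At 48 h of brequinar 5 of 9 were lower and 1 higher in each class. In the withdrawal culture of 48 h, 7 of 9 were lower among S cells and 6 of 9 among G2/M cells, and none was higher. The share of all genes was not counted within classes, so these counts have no background of their own. In the whole cultures 13.8%, 17.3% and 40.7% of all genes were lower in those comparisons, in the order given.

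Slc7a11 was lower, not higher, within the cycling classes of the 48 h withdrawal culture. It was at 33.9 CPM in S cells and 69.3 CPM in G2/M cells, against 107 and 93.8 CPM in the same classes at 0 h. The G1-like cells of that culture held it at 277 CPM, and those of the 24 h withdrawal culture at 230.3 CPM beside 42.9 and 43.5 CPM in S and G2/M cells. After 48 h of brequinar all 3 classes were higher than the cycling classes of 0 h, with 285 CPM in S, 207 in G2/M and 324 in G1-like cells. The G1-like classes at 0 h held 11 and 8 cells and are given no ratio.

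Cells rich in Slc7a11 held more Prg2, the gene of eosinophil major basic protein, as given under other observations. Prg2 was picked for that reason, and the cells of each culture were then ordered by their share of it. A higher Slc7a11 level in the cells with the largest share was therefore built into the late cultures and is not a separate result. At 48 h of withdrawal the 88 cells with the largest share held Slc7a11 at 454 CPM and the other 800 cells at 116 CPM. In those other cells Slc7a11 was 1.23-fold that of the other cells at 0 h (1.13 to 1.35), under the 1.5-fold mark. At 24 h of withdrawal the values were 298 and 35.5 CPM. In brequinar at 48 h they were 551 and 192 CPM, and the other cells alone were 1.89-fold above 0 h (1.75 to 2.05). By this split Slc7a11 at 48 h of brequinar was higher in both sets of cells. The split goes by rank inside each culture, while Prg2 stood at 644 CPM at 0 h and 9153 CPM at 48 h of brequinar. Even cells of that 48 h culture with no thinned Slc7a11 UMI held Prg2 at 6437 CPM. The other cells were thus not low in Prg2, and the split does not show a rise outside cells that express it. The cells with the largest share, 51 of 515 in brequinar and 88 of 888 in withdrawal, held 24.0% and 31.4% of the Slc7a11 UMIs.

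**Figure D4:**
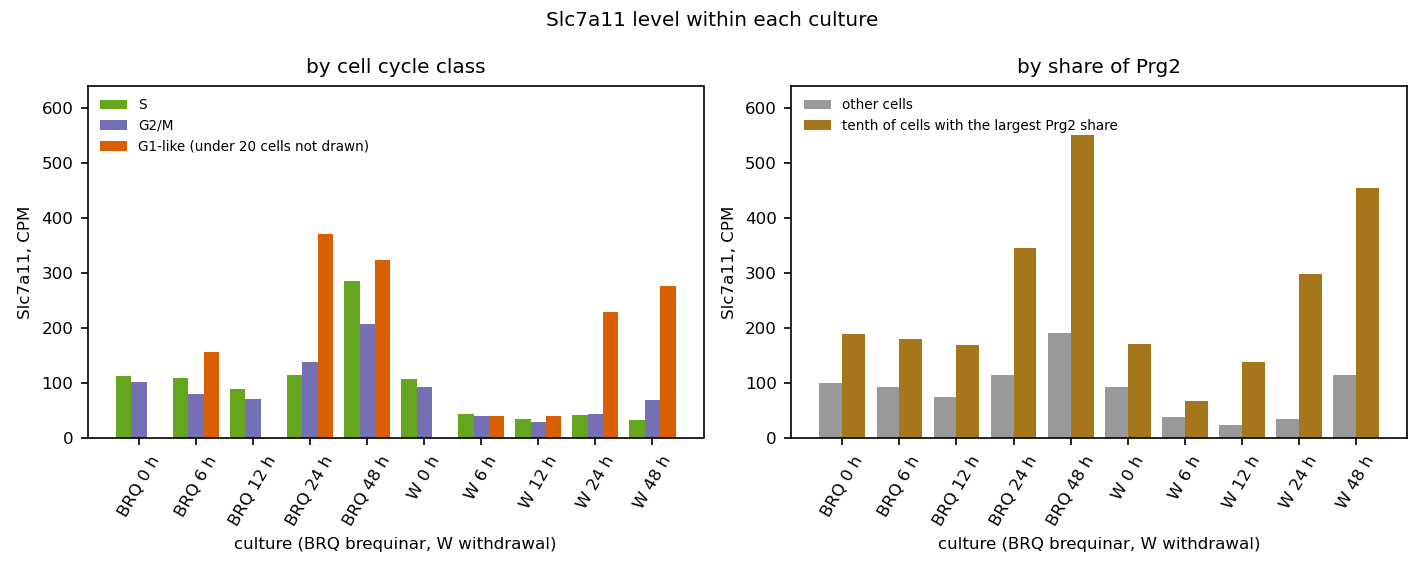
Slc7a11 level in CPM (y axis) in each culture (x axis), on the left by cell cycle class and on the right in the cells with the largest share of Prg2 and in the other cells. At 48 h of withdrawal G1-like cells reach 277 CPM beside 33.9 in S cells, and at 48 h of brequinar the cells rich in Prg2 reach 551 CPM beside 192 in the others. Prg2 was picked because cells rich in Slc7a11 held more of it.

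Inside a culture the levels of some of these genes differed with the share of neutrophil maturation genes. With the 48 h withdrawal cells ordered by that share and put into 3 equal ranges, all 9 genes were lower in the highest range than in the lowest, from 1.71-fold for Asns and Slc3a2 to 2.40-fold for Slc7a11, 2.69-fold for Ass1 and 3.19-fold for Phgdh (2.01 to 5.24). The ranges had median depths of 6423 and 7484 UMIs and 55.7% and 48.0% G1-like cells. The neutrophil maturation genes themselves held 16.7% of thinned UMIs in the highest range and 0.482% in the lowest, which lowers the CPM of all other genes there. The share of all genes that were lower between these ranges was not counted. At 24 h of brequinar Slc7a11 did the reverse, at 78.2 CPM in the lowest range and 223 CPM in the highest (2.85-fold, 2.55 to 3.19), and at 48 h it was flat at 221, 236 and 224 CPM. Phgdh was 1.79-fold and 2.34-fold lower in the highest range of those 2 brequinar cultures, while Asns was 1.25-fold higher (0.990 to 1.58) in the first and 1.46-fold lower (1.09 to 1.95) in the second. Mthfd2 and Slc3a2 were at 0.937-fold and 0.980-fold at 24 h, and Ass1 at 0.912-fold at 48 h. The ordering was chosen with the data known, and whether maturation or cell cycle state accounts for the culture-wide changes was not tested.

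Across the 10 cultures, which share 1 pool and differ in depth, the log2 levels of 8 of the 9 genes went up and down together. The 28 pairs without Slc7a11 had Pearson correlations of 0.67 to 0.96 (median 0.86), and the 8 pairs with Slc7a11 had -0.56 to -0.31. Among 6866 genes, those outside the 10 that were most like the mean of the 9 were Yars (0.984) and Gars (0.981), aminoacyl-tRNA synthetases, then Xpot, a tRNA exporter, Lonp1, Pithd1, Nars, Iars and Got1. Atf4 (0.981) and Eif5 (0.971) were, outside the 10, most like Asns, followed by Cep63, Zdhhc4 and Nars, and among the 10 Mthfd2 had 0.929. The genes outside the 10 most like Ass1 were led by Uqcrc2 (0.989), a subunit of respiratory complex III, Caprin1, Idh3b, Mnd1 and Armc10. For Slc7a11, looked up after its course was seen, Cd44 (0.911) came first. These values are descriptions over 10 cultures.

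Wider lists of each pathway, which include these genes, were counted by the same rule. Of 16 measured genes of serine, glycine and one-carbon metabolism, 14 were lower at 24 h of brequinar and none higher (median log2 ratio -1.0, against 0.16 for all genes measured, of which 13.8% were lower and 29.2% higher). After 48 h of withdrawal 16 of 17 were lower (median -1.47, against -0.33 for all genes, of which 40.7% were lower and 21.5% higher). Beyond the 10 genes, Gcsh of the glycine cleavage system was 2.53-fold and 6.27-fold lower in those 2 comparisons, the cytosolic Shmt1 2.47-fold and 4.38-fold, and the folate carrier Slc19a1 2.93-fold and 5.02-fold.

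Asparagine, glutamate, proline and alanine genes were lower in 5 of 12 at 24 h of brequinar and in 10 of 12 at 48 h of withdrawal, against 13.8% and 40.7% of all genes, with medians of -0.48 and -1.05. Got1, the cytosolic aspartate aminotransferase, was 2.55-fold and 4.73-fold lower. Glud1, glutamate dehydrogenase, was the exception, 1.96-fold higher at 24 h of brequinar and 2.18-fold at 48 h of withdrawal.

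Of 9 measured arginine and polyamine genes 5 were lower at 24 h of brequinar, 5 at 48 h and 5 at 48 h of withdrawal, and 1 was higher each time. Of all genes 13.8%, 17.3% and 40.7% were lower in those comparisons, and the list's medians were -0.57, -0.64 and -1.81. The polyamine synthesis genes Srm and Odc1 were 7.03-fold and 5.10-fold lower at 48 h of withdrawal. Sat1, which acetylates polyamines for breakdown and export, was 6.00-fold higher at 48 h of brequinar and 13.7-fold higher (12.9 to 14.6) at 48 h of withdrawal.

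Of 11 measured genes of sulfur and branched-chain amino acids 4 were lower and 1 higher at 24 h of brequinar, and 5 lower and 1 higher at 48 h of withdrawal. With 13.8% and 40.7% of all genes lower, the second count is near the background. The methionine salvage gene Mtap was 2.89-fold and 8.90-fold lower and the branched-chain aminotransferase Bcat1 6.83-fold and 9.45-fold lower. Gsr, glutathione reductase, was the higher gene each time, at 2.29-fold and 5.38-fold.

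Amino acid transporters as a group had a median nearer that of all genes (-0.14 after 24 h of brequinar, -0.49 after 48 h of withdrawal). At 24 h of brequinar 2 of 14 were higher and 3 lower, and at 48 h of withdrawal 4 of 13 were higher and 6 lower. Among all genes 29.2% were higher and 13.8% lower in the first comparison and 21.5% and 40.7% in the second, so the 6 of 13 is near the background. Slc7a1, a carrier of arginine and lysine, was 3.15-fold lower at 24 h of brequinar and 3.66-fold lower at 48 h of withdrawal, while Slc36a1, a lysosomal amino acid exporter, was 2.50-fold and 2.20-fold higher.

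Of the 6 lists, the ATF4 and amino acid sensing list alone had a median above 0 at 6 h, in both series. At that time 8 of 15 were higher in brequinar (median 0.69) and 9 of 16 in withdrawal (median 0.69), against 8.82% and 12.3% of all genes. The stress genes Nupr1, Trib3 and Ddit3 (CHOP) were 20.9-fold, 5.33-fold and 2.39-fold higher in brequinar and 16.4-fold, 6.88-fold and 2.61-fold higher in withdrawal. At 24 h of brequinar 4 of 13 were lower and 2 higher, against 13.8% and 29.2% of all genes. Trib3 (4.47-fold), Atf5 (3.57-fold) and Atf4 (2.82-fold) were among the lower, while Cebpb, a myeloid C/EBP factor, was 1.86-fold higher.

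**Figure D5:**
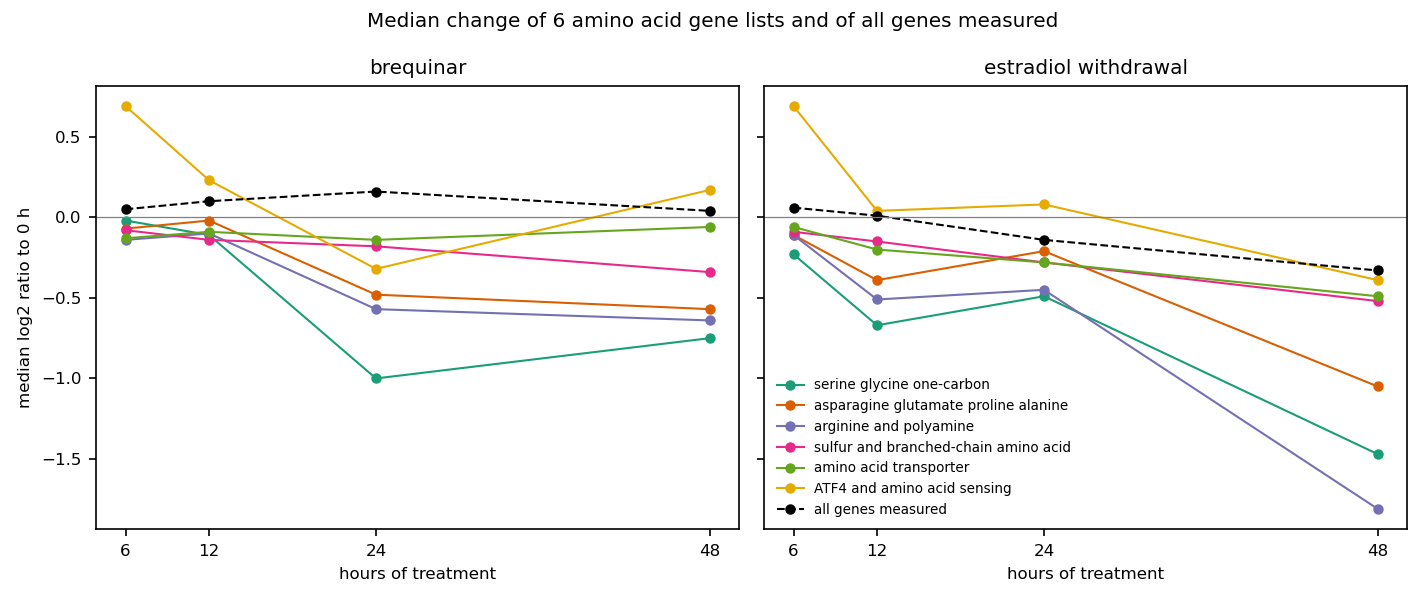
Median log2 ratio to 0 h (y axis) of 6 gene lists and of all genes measured (dashed black) against hours of treatment (x axis), brequinar on the left and withdrawal on the right, with a pseudocount of 5 CPM. The ATF4 and amino acid sensing list starts at 0.69 in both series, and the serine, glycine and one-carbon list reaches -1.0 after 24 h of brequinar and -1.47 after 48 h without estradiol.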

How the data were processed

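The authors deposited raw counts of spliced and unspliced UMIs per cell barcode and gene, an annotation of barcodes and a table that gives each MULTI-seq barcode its treatment and time. Tools listed in the submitters' processing notes are Cell Ranger, kallisto 0.46 and bustools 0.39.4, with no role for each. The genome build is not given in the sources used here. Gene IDs were matched to symbols (54723 of 54838) and IDs of 1 symbol were summed. Barcodes that the authors' annotation calls doublets (2777, 17.8%) or negative (265) were left out and no doublet caller was run. The 2 runs share 1 matrix without a label of the run, and a barcode found in both could not be split. The 12540 cells used held 63.9% of spliced UMIs; the unspliced matrix was not used here.

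Counts were summed per culture and scaled to CPM. A ratio of CPM has an exact 95% conditional binomial interval. Medians over a list use log2(CPM + 5). Cells were thinned to 2500 UMIs (seed 1) for shares, spread and cell cycle scoring (scanpy 1.11.5); the 10949 cells kept were 81.3% to 97.5% of each culture. Levels in classes of cells use the full counts of those cells. Python 3.11.15, numpy 2.4.6, scipy 1.17.1, pandas 2.3.3 and matplotlib 3.10.9 were used, and the ratio and its interval were tested on simulated data.

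All 10 genes and Atf4 are named throughout; other genes are the largest ratios of each list in the direction described, and the genes most alike in course (8 for the mean, 5 for Asns and Ass1). The genes, lists and rules were chosen with earlier results of these data known. The neighbours of Slc7a11, the orderings by neutrophil genes and by Prg2, and the genes of cells rich in Slc7a11 were added after seeing the values. Alternatives covered the fold, filter, pseudocount, scaling, free RNA, cell filters, gene IDs, the 0 h culture and cell cycle weights.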

Additional observations from a re-analysis of the deposited data

Results flagged for a closer look

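Several genes lay on opposite sides of their own 0 h level in the 2 series at the same time, with counting intervals clear of 1 and a ratio between the folds of at least 1.5. Each is 1 culture against 1, and the difference was not tested. At 12 h Asns was 1.39-fold its 0 h level in brequinar and 0.688-fold in withdrawal, a ratio of 2.02. Shmt2 at 12 h was 1.45-fold and 0.764-fold (ratio 1.90), and Mthfd2 2.14-fold and 0.862-fold (ratio 2.48). At 24 h Mthfd2 had the opposite order, 0.446-fold in brequinar and 1.12-fold in withdrawal (ratio 0.397). Slc7a11 at 24 h was 1.25-fold in brequinar and 0.607-fold in withdrawal (ratio 2.06).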

How the results depend on the processing

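The results for the 9 genes were recomputed under 14 other settings. The pseudocount was changed only for the median log2 ratios, and the rest were applied to the counts of higher or lower genes. The other series' 0 h culture was used only in comparisons against 0 h, and ratios to each own 0 h only between the series. Counts that moved by over 1.5 times follow. With a 2-fold mark, 6 h of brequinar had 1 higher; withdrawal had 1 higher at 6 h, 1 lower at 12 h, 1 lower at 24 h, and 0 higher and 5 lower at 48 h. Brequinar over withdrawal then had 2 higher at 12 h, 3 lower at 24 h and 1 higher at 48 h. As mean UMIs per cell (chosen after seeing the data), brequinar had 1 higher at 6 h and 3 lower at 12 h; withdrawal had 0 higher and 3 lower at 6 h, 9 lower at 12 h and 0 higher at 48 h; and brequinar over withdrawal had 8 higher at 48 h. The mean of per-cell CPM gave 2 higher at 12 h of brequinar and 2 lower at 12 h of withdrawal. Size factors gave 1 higher at 6 h and 5 lower at 48 h of withdrawal. Leaving out mitochondrial genes, weighting cells to the cell cycle shares of 0 h, and using the other series' 0 h culture each gave 0 higher at 48 h of withdrawal, where Slc7a11 is the only higher gene. Its fold there was 0.571 with cell cycle weights and 0.783 as UMIs per cell. A filter of 50 CPM gave 2 higher at 48 h of brequinar over withdrawal. The weights rest on 11 and 8 G1-like cells at 0 h. The other settings moved no count by over 1.5 times. No paired analysis was possible because each condition is 1 culture and the 2 runs of the pool are not marked in the matrix; for the same reason no replicate could be left out. Culture-to-culture variation is seen only between the 2 cultures at 0 h. Slc7a5 had too few UMIs for a ratio, and Ass1 and Phgdh at 48 h of withdrawal rest on 124 and 167 UMIs.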

Other observations

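The cells rich in Slc7a11 late in both series carried other genes as well; they were picked after the data were seen, by 3 or more Slc7a11 UMIs after thinning, and are a range of 1 gene and not a cell type. At 48 h of withdrawal 54 cells passed this mark and held 58.5% of the thinned Slc7a11 UMIs, 696 cells had none and 138 lay between. Among the 10 genes with the largest ratio were Prg2 (81085 CPM against 2749.5 CPM in cells with none, 29.5-fold) and Epx (349 against 5.75 CPM), the genes of eosinophil major basic protein and eosinophil peroxidase. Others were the chemokine gene Cxcl2 (405 against 15.8 CPM), the heme oxygenase gene Hmox1 (1183 against 70.0 CPM) and the lipoxygenase gene Alox15 (95.6 against 5.75 CPM). The rest of the 10 were Il4 (89.0 against 0.359 CPM, from 27 and 2 UMIs), Cd200r3 (95.6 against 8.62 CPM), Itga2b (85.7 against 8.80 CPM), Adam8 and Ndufa4l2. Top2a, a topoisomerase of dividing cells, stood at 26.4 against 353 CPM, and 81.5% of the rich cells were G1-like against 45.7% of those with none. Neutrophil maturation genes summed to 19910.4 against 65935 CPM, and monocyte markers to 827 against 421 CPM. Median depth was 5388 against 7096 UMIs.

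At 48 h of withdrawal no other measured amino acid gene was higher in the rich cells with an interval clear of 1. In the same 54 cells Asns was at 29.7 CPM against 81.2 CPM (0.365-fold, interval 0.166 to 0.700), Psph at 29.7 against 77.0 CPM and Slc3a2 at 138 against 115 CPM (1.20-fold, 0.860 to 1.65). At 24 h of brequinar 41 cells passed the mark; Prg2 was at 6836 against 1269 CPM and Prg3, a homolog of Prg2, at 4691 against 1051 CPM, and Sox4 was 0.205-fold. At 48 h of brequinar 33 cells did, with Prg2 at 20641 against 6437 CPM and Elane, neutrophil elastase, at 37.8 against 306 CPM. Slc3a2 was higher in those 33 cells, at 224 against 159 CPM (1.41-fold, 1.08 to 1.81). The intervals of the other measured amino acid genes spanned 1 there. Summed over the cells kept for thinning, Prg2 stood at 644, 742, 853, 1995 and 9153 CPM at 0, 6, 12, 24 and 48 h of brequinar and at 605, 809, 2133, 9552 and 7418 CPM in withdrawal. Slc7a11 was lowest in the withdrawal culture at 12 h, where Prg2 was already above its 0 h level. Within that culture the cells with the largest share of Prg2 held Slc7a11 at 139 CPM and the other cells at 24.5 CPM. At 0 h of withdrawal the values were 171 and 94.1 CPM.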
